A study of Mus musculus with 12 samples.

Results

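Pseudogenes that lie inside the introns of a gene on the opposite strand are described here, each called by its own symbol and by the gene it lies in, its host. They were chosen by annotation and level: a GENCODE M21 pseudogene with at least 50% of its exon bases inside exactly 1 opposite-strand gene, no more than 10% inside any other, at least 80% of the overlap intronic, and a mean of at least 1 CPM (counts scaled to a library total of 1000000 gene counts) over 12 libraries. The rule took 1149 of the 1815 pseudogenes at such sites, of 13517 pseudogenes and 55471 annotated features in the count tables. They lie in 970 hosts. The mean of 1 CPM fell between Gm6818 in Gm28453 (1.011 CPM), Gm17893 in Strbp (1.025 CPM) and Gm49155 in Otx2os1 (1.034 CPM), which were taken, and Gm48180 in Tspear (0.9977 CPM), Gm13471 in Gm13481 (0.9962 CPM) and Gm16071 in St14 (0.9956 CPM), which were not.

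The study measured RNA from mixed cortex and hippocampus of adult male C57BL6JL mice, 3 to 5 months old, and asked whether neuronal stimulation changes what the U1 small nuclear ribonucleoprotein (U1 snRNP) binds. Naive mice were compared with mice killed 90 min after MECS, a maximal electroconvulsive stimulus of 85 mA given over 1 s, which brings on a generalized seizure. Homogenized tissue of every animal was irradiated with ultraviolet light at 400 mJ per square cm, which crosslinks RNA to protein. Input RNA was taken from the lysate, and U1 RNA was immunoprecipitated from the rest with an antibody against U1-70K, a protein of the U1 snRNP. Input and U1 RNA of naive and of MECS mice thus make 4 groups of 3 libraries, in which each U1 library has an input library of the same animal. None of the libraries used here is a control precipitate, so a difference between U1 and input cannot be told apart from other differences in RNA recovery.

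Processed pseudogenes are copies of messenger RNAs that were reverse transcribed and inserted back into the genome, without introns and usually without a promoter. Many landed in introns of other genes, and one that lies opposite to its host is transcribed as part of the host's primary transcript in antisense to itself. U1 snRNP pairs with 5′ splice sites through the U1 RNA, and in long genes it is also known to hold back cleavage and polyadenylation at cryptic signals inside introns.

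Here 4 stretches of 150 bases, from pseudogenes named in the results below, are shown. They are read along the host strand as the intron transcript would carry them. They are from the GENCODE M21 transcripts on GRCm38, and each is the reverse complement of the pseudogene's own strand. Capitals mark the hexamer AATAAA, the common polyadenylation signal, in the first, and GTAAGT, which can pair with the 5′ end of U1 RNA, in the second. The last pair has neither.
Gm15425 in Pde10a, chr17:8564950-8565099, plus strand: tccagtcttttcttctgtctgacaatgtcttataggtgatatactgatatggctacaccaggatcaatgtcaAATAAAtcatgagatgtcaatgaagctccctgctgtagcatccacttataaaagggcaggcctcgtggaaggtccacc
Gm2639 in Frmd4a, chr2:4051717-4051866, plus strand: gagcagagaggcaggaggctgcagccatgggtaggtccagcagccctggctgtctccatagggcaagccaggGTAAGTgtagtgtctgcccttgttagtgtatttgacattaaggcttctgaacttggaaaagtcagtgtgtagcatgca
Gm47660 in Amph, chr13:19071311-19071460, plus strand: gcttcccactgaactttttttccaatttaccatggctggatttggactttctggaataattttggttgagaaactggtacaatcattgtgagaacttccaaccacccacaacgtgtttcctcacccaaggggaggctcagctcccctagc
Gm49084 in Galnt15, chr14:32036052-32036201, plus strand: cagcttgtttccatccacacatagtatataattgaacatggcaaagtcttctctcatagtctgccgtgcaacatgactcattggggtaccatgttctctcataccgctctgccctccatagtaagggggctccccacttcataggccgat
Gm15425 was the most abundant of all these pseudogenes and was higher after MECS in both kinds of RNA. Gm2639 was among the most abundant. Gm47660 was higher after MECS, and Gm49084 was higher with U1 in both states.

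Gene counts per library ranged from 704432 to 1962312, and these pseudogenes held 21179 to 75364 of them. Under their own symbols, defining markers of brain cells had few counts, with 8 to 22 per library for the neuronal Snap25, 40 to 213 for the astrocyte transporter Slc1a2 and 46 to 226 for the myelin gene Mbp. The library kit keeps strand, but how the counting used strand is not stated in the labels, so reads of a pseudogene's own transcript and reads of the host's intron cannot be told apart in these counts. For MECS against naive, the p-values below measure the spread between the 3 animals of each state. Tests that set U1 against input treat the input and the U1 library of an animal as independent, except where the animal is a block.

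Counts on a pseudogene went with the gene on the other strand. Of all 1815 pseudogenes in opposite-strand introns, 80.6% had a count in at least 1 library and 63.3% reached a mean of 1 CPM. Of 1011 pseudogenes that lie in an intron of their own strand with no gene opposite, 44.3% had a count and 44, or 4.35%, reached 1 CPM. Of 10024 pseudogenes with no gene on either strand, 30.8% had a count and 7.19% reached 1 CPM. In each library, the mean over pseudogenes in opposite-strand introns, at every level, was 27.3 to 37 CPM per exon kilobase, here without scaling factors. The same mean was 0.413 to 0.624 in same-strand introns and 0.895 to 1.19 outside genes, with no overlap between any of the 12 libraries. Pseudogenes over exons of an opposite-strand gene, of which there were 135, lay at 32.8 to 40.8. The 4273 features in opposite-strand introns that are not pseudogenes lay at 36.7 to 47. These levels are descriptions, and the features share the same libraries.

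**Figure D1:**
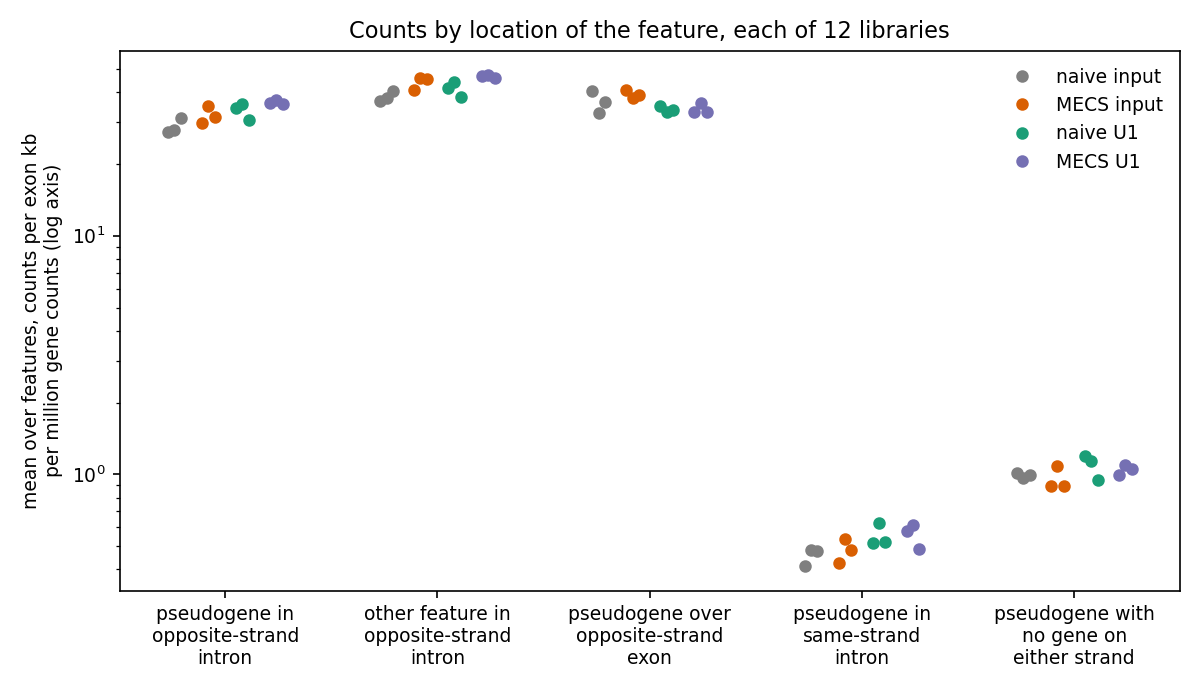
Mean over features of CPM per exon kilobase, without scaling factors (log axis), in each of the 12 libraries, by where the features lie. Each point is 1 library, and the 3 classes opposite a gene sit above 27, while the classes with no gene opposite sit below 1.2.

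Among the 1149 pseudogenes, 1104 are annotated as processed, 34 of them as transcribed, and 45 are of other kinds. The hosts were protein coding for 1030 of them, long intergenic RNAs for 57 and antisense RNAs for 33. Hosts were long, with a median of 120938 bases, and the median intron around a pseudogene had 22586 bases. The pseudogenes themselves had a median of 526 exon bases and lay a median of 8823 bases from the 5′ end of the intron. Only 54 also overlap a gene on their own strand. The median level was 16.2 CPM (quartiles 6.21 and 36.2), or 33.1 CPM per exon kilobase, and 69 reached 100 CPM. The 12 most abundant held 11.8% of the counts of all of them.

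The genes whose sequence they resemble most were often ribosomal protein genes. An alignment to protein-coding transcripts matched 1080 over at least 50% of their length to 537 genes, with a median identity of 89.4%. Ribosomal protein genes were the best match of 389, or 36% of those matched. Rpl7a, of the large ribosomal subunit, was the best match of 45 pseudogenes in 45 hosts, and the glycolytic enzyme gene Gapdh of 33 in 33 hosts. Levels ranged widely among copies of the same gene, from 1.56 to 426 CPM for Rpl7a and from 1.38 to 195 CPM for Gapdh. Of the pseudogenes at opposite-strand intron sites with at least 98% identity to their match, 57% reached 1 CPM, with a median of 18.5 CPM per exon kilobase. In the 4 classes of lower identity, 61.5 to 68.7% did, with medians of 32.8 to 37.6. Reads on the nearly identical copies can also belong to the gene copied, so values of that class are uncertain.

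Levels of the most abundant ones are given next with their hosts. Gm15425 led with a mean of 796 CPM in Pde10a, which encodes a cyclic nucleotide phosphodiesterase of neurons. Gm3257 in the noncoding RNA gene A330076H08Rik followed at 468 CPM, and Gm15812 in Phactr1, a regulator of actin and of protein phosphatase 1, at 426 CPM. Gm2639 in Frmd4a, a scaffold protein of cell polarity, had 337 CPM. Gm48260 in Adarb2, an RNA-editing family member of brain, had 321 CPM. Gm11242 in the receptor phosphatase gene Ptprd and Gm18670 in the postsynaptic scaffold gene Anks1b had 311 CPM each. Per exon kilobase the order differed, with 693 for Gm3257, 570 for Gm15812 and 447 for Gm18670 against 293 for Gm15425.

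Pseudogenes of 1 host differed less in level than pseudogenes of different hosts, as a description. In the 136 hosts with 2 or more, the 235 pairs differed by a median of 1.77-fold per exon kilobase, against 3.28-fold between pairs from different hosts. The member nearer the host's start was the higher one in 136 pairs, or 57.9%. Of the 28 hosts with 3 pseudogenes, Kcnip4 and Fgf14 had the highest summed level. In Kcnip4, which encodes a protein that modulates potassium channels, levels fell along the gene from 662 CPM per exon kilobase at 101 kb from the start to 318 at 600 kb and 157 at 858 kb. These 3 have 313, 372 and 1365 exon bases, and their mean CPM, not divided by length, were 207, 118 and 215, without such a fall. In Fgf14, an intracellular factor of sodium channels, levels per exon kilobase were 729, 475 and 389 at 87.8, 145 and 278 kb, with 285, 452 and 282 exon bases. Over all these pseudogenes the median per exon kilobase was 48.6 under 300 exon bases and 16.7 from 1200. The part of length in these orders was not tested. In Cacnb2, a calcium channel subunit, Gm13268 had 246, Gm13314 199, Gm13311 207 and Gm13316, farthest from the start, 49.7. Ptprd went against such an order, with 166, 68.5, 53.8, 127 and 132 over its 5 pseudogenes, and so did Frmpd4, with 49.9 for the first and 173 for the second. The 6 in the zinc finger gene Zfp943, the most in any host, ran from 69 at 1.58 kb to 0.981 at 105 kb.

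**Figure D2:**
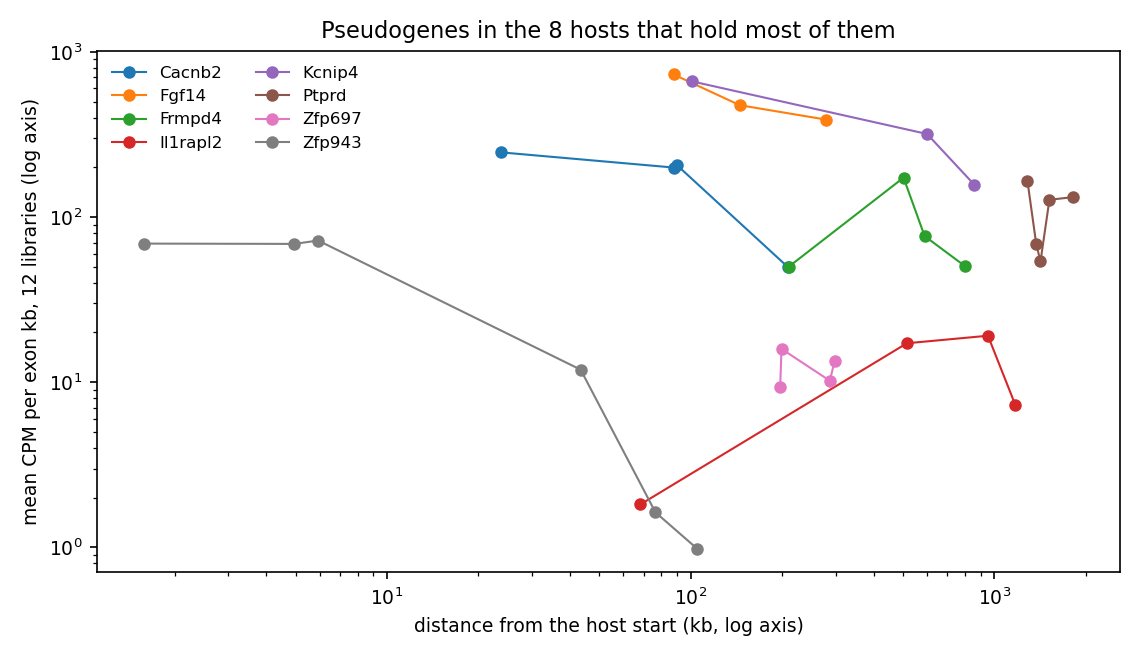
Mean level over 12 libraries, in CPM per exon kilobase (log axis), against distance from the host start in kilobases (log axis) for 8 hosts: the 6 with 4 or more pseudogenes, and Kcnip4 and Fgf14, which have the highest summed CPM of the 28 hosts with 3. Each point is 1 pseudogene, lines join those of a host, and levels per exon kilobase fall with distance in Kcnip4 and Fgf14 but not in Ptprd.

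At 90 min after MECS, 5 of these pseudogenes were higher in input RNA and 0 were lower. They lie in Pde10a, Amph, Pnpla7, Sh3gl2 and Cacnb2, hosts that act in cyclic nucleotide signalling, synaptic vesicle endocytosis (Amph and Sh3gl2), phospholipid turnover and calcium channels. Those 5 were 0.659% of the 759 that passed the filter on low counts and were tested with edgeR's quasi-likelihood test, against 0.606% of all 10402 features tested (0.51% higher and 0.0961% lower). Their share was thus near the background. The median log2 change was 0.03 over those tested and -0.02 over all features tested. Other features in opposite-strand introns had 28 higher and 0 lower of 2013. The count of 5 rested on single libraries: it was 1 without naive input 1, without naive input 2, without naive input 3 or without MECS input 3.

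Gm15425 in Pde10a was the exception. It had 431, 447 and 542 CPM in the naive input libraries and 883, 989 and 898 CPM in the MECS input libraries. In U1 RNA it had 619, 673 and 539 CPM in naive and 1131, 1131 and 1265 CPM in MECS libraries. Every MECS library was above every naive library of the same kind of RNA. Here and below, pseudogenes described as called were picked by the test on these same libraries. The share of all features without overlap between groups was not counted, so a lack of overlap is a description only. The log2 change was 0.90 (SE 0.15, adjusted p = 0.0019) in input and 0.89 (SE 0.14, adjusted p = 0.00241) in U1 RNA. The call held in each of the 14 alternative fits of either comparison, leaving out each library included, with adjusted p of 6.36e-06 to 0.0281 in input and 4.49e-07 to 0.0361 in U1 RNA. Its exons match Trip12, a ubiquitin ligase gene, at 89.5% identity.

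A second pseudogene of Pde10a lies farther from the host's start and gave other values. Gm15426, named after its values were seen, lies at 240 kb from the start, and Gm15425 at 38.9 kb. The log2 change of Gm15426 after MECS was 0.08 (SE 0.21, adjusted p = 0.942) in input and 0.14 (SE 0.16, adjusted p = 0.829) in U1 RNA. The difference between the 2 pseudogenes was not tested. The only other feature opposite Pde10a, Gm17087, had 0.64 (SE 0.16, adjusted p = 0.0505) in input and 0.88 (SE 0.15, adjusted p = 0.00691) in U1 RNA. In Cacnb2 the log2 changes in input were 0.77 (SE 0.19) for Gm13268 at 23.8 kb, 0.63 (SE 0.22) for Gm13314 at 88.3 kb, 0.13 (SE 0.21) for Gm13311 at 89.8 kb and 0.12 (SE 0.28) for Gm13316 at 209 kb. Of these 4, Gm13268 alone passed the test. Over all pseudogenes tested no such order was seen: median log2 changes in input were -0.02 within 10 kb of the host start, 0.02 from 30 to 100 kb and 0.14 from 100 to 300 kb.

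Gm47660 in Amph, which encodes amphiphysin of synaptic vesicle endocytosis, was higher after MECS in both kinds of RNA. It had 15.4, 13.7 and 14.6 CPM in naive input and 49, 31.1 and 41.9 CPM in MECS input. In U1 RNA it had 14, 23.6 and 14.3 CPM in naive and 54, 34.3 and 48.2 CPM in MECS libraries. The groups did not overlap in either kind of RNA, but Gm47660 was picked by the test on these same libraries. The log2 change was 1.41 (SE 0.30, adjusted p = 0.0165) in input and 1.29 (SE 0.28, adjusted p = 0.0366) in U1 RNA. Both other features opposite Amph introns, the antisense RNAs Gm47658 and Gm47661, changed the same way. Summed, they had 0.99 (SE 0.18, adjusted p = 0.00473) in input and 1.48 (SE 0.24, adjusted p = 0.00503) in U1 RNA. The call of Gm47660 in input was lost without any 1 of the 3 naive input libraries, without MECS input 1 or without MECS input 3, with adjusted p of up to 0.0847. In U1 RNA it was lost without naive U1 1, naive U1 3, MECS U1 1 or MECS U1 3, with adjusted p of up to 0.334.

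The other 3 higher in input were less stable. Gm13369 in Pnpla7, a lysophospholipase, had 12.9, 16.4 and 20.8 CPM in naive and 30.9, 46.7 and 50.6 CPM in MECS input, a log2 change of 1.27 (SE 0.30, adjusted p = 0.0378). Gm12413 in Sh3gl2, which encodes endophilin A1, had 57.4, 61.5 and 80.9 CPM in naive and 138, 93.4 and 143 CPM in MECS input, a change of 0.84 (SE 0.20, adjusted p = 0.0422). Gm13268 in Cacnb2 had 66.9, 54.7 and 72.4 CPM in naive and 119, 126 and 104 CPM in MECS input, a change of 0.77 (SE 0.19, adjusted p = 0.0463). In all 3 the input groups did not overlap. They were picked by the test on these same libraries, and the share of all features without overlap was not counted. Each lost the call without any 1 of the 3 naive input libraries and without MECS input 3, with adjusted p of up to 0.257, 0.274 and 0.183. Without MECS input 1 Gm12413 and Gm13268 lost it, and without MECS input 2 Gm13369 and Gm13268 did. None of the 3 was called by DESeq2, and Gm12413 also lost the call with all 12 libraries in 1 fit (adjusted p = 0.0795). The exons of Gm13268 match Rpl26 at 98.2% identity, so its reads can also belong to that gene. In U1 RNA the log2 changes of the 3 were 0.38, 0.61 and 0.43, none past the test.

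In U1 RNA, 3 pseudogenes were higher after MECS and 0 were lower, of 835 tested. That was 0.359%, against 0.386% of all 11141 features tested (0.332% higher and 0.0539% lower), again near the background. The median log2 change was 0.08 over those tested and -0.02 over all features. Besides Gm15425 and Gm47660, the third was Gm18325 in Syn2, which encodes synapsin II of synaptic vesicles. It had 127, 158 and 130 CPM in naive U1 and 363, 191 and 337 CPM in MECS U1 libraries, a log2 change of 1.04 (SE 0.19, adjusted p = 0.0103). MECS U1 2 was the lowest of its group and still above all naive U1 libraries. Gm18325 lost the call without naive U1 1 and without MECS U1 1, with adjusted p of up to 0.14. In input it had 161, 154 and 162 CPM in naive and 332, 197 and 255 CPM in MECS libraries, and the change of 0.65 (SE 0.17, adjusted p = 0.0697) did not pass the test. The count of 3 was 1 without naive U1 1 or MECS U1 1, 12 without naive U1 2 and 6 without MECS U1 2. The comparisons in input and in U1 RNA share no library but come from the same animals, and 2 of the 5 called in input and 2 of the 3 called in U1 RNA were in both. The same overlap over all features is not given here, so it cannot be read as particular to these pseudogenes.

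**Figure D3:**
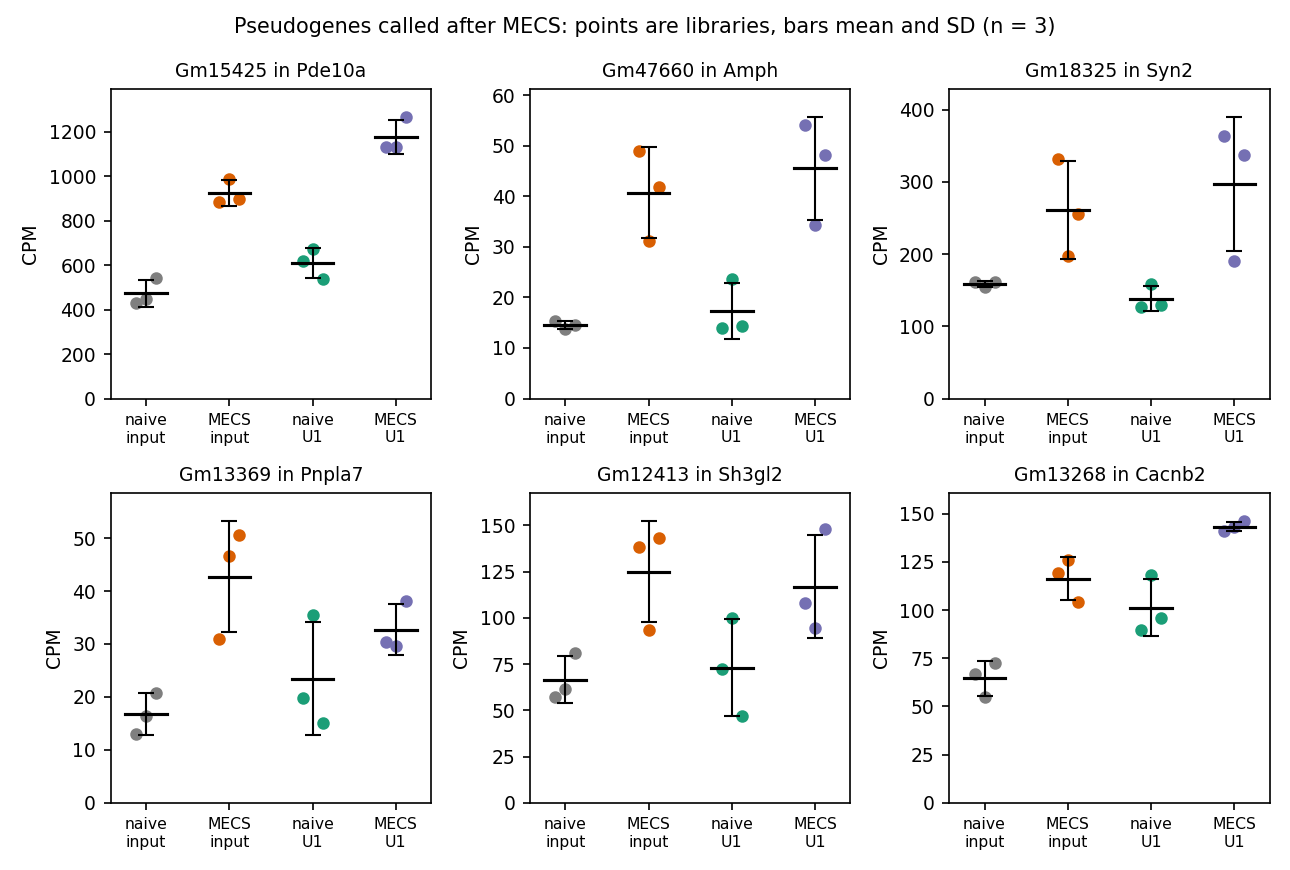
CPM of the 6 pseudogenes called after MECS in input or U1 RNA, by group. Points are the 3 libraries of a group, bars are the mean and SD, each axis starts at 0, and Gm15425 and Gm47660 are higher in all MECS libraries of both kinds of RNA.

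Counts were also summed over the pseudogenes of a host, which gives 1 value per host. In input, 4 of 662 hosts tested were higher after MECS and 0 lower, against 0.581% of all 10161 rows of that table (0.482% higher and 0.0984% lower). The 4 were Amph, Pde10a, Pnpla7 and Sh3gl2. In U1 RNA, 5 of 719 were higher and 0 lower, against 0.414% of 10871 rows (0.359% higher and 0.0552% lower). Amph, Pde10a and Syn2 were joined by 2 hosts in which no single pseudogene passed the test. The 3 in Sav1, a scaffold of Hippo signalling, rose from a sum of 209 ± 30.7 to 336 ± 3.17 CPM (SD, n = 3), a log2 change of 0.65 (SE 0.14, edgeR adjusted p = 0.0415). The 2 in Cyld, a deubiquitinase, rose from 81.3 ± 13.5 to 141 ± 13.3 CPM (SD, n = 3), a change of 0.75 (SE 0.17, edgeR adjusted p = 0.0493). The 4 hosts called in input became 0 without naive input 1 or naive input 2, 1 without MECS input 3, 2 without naive input 3 and 7 without MECS input 2. The 5 called in U1 RNA became 0 without naive U1 1 or MECS U1 1, 1 without naive U1 3, 2 without MECS U1 3, 12 without naive U1 2 and 8 without MECS U1 2.

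The other features of the same hosts give a second reading of the same genes. They are all other features opposite the host, those over its exons as well as those in its introns. In hosts where both were tested, the change after MECS of the summed pseudogenes and of the summed other features had the same sign in 121 of 217 hosts in input and in 139 of 241 in U1 RNA. Spearman's rho across hosts was 0.10 and 0.23, as a description, since hosts share libraries. For the ratio of U1 to input the sign was shared in 131 of 228 hosts in naive brain and 141 of 225 after MECS, with rho of 0.31 and 0.29.

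The share of gene counts on these pseudogenes was 3.12 ± 0.227% in naive input, 3.5 ± 0.286% in MECS input, 3.66 ± 0.274% in naive U1 and 3.96 ± 0.0702% in MECS U1 (SD, n = 3 each). The MECS U1 libraries were all above the naive U1 and the MECS input libraries, while the groups of the other 2 comparisons overlapped. None of the 4 differences passed an exact permutation test, with 2-sided p of 0.1 for MECS against naive in U1 RNA and for U1 against input after MECS, 0.2 for the other 2, and adjusted p of 0.2 for each. With 3 libraries against 3 the smallest p such a test can give is 0.1.

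In naive brain, 20 of these pseudogenes were higher with U1 than in input and 1 was lower, of 794 tested. That was 2.64%, against 10.5% of all 10918 features tested, of which 4.19% were higher and 6.26% lower. After MECS, 21 were higher and 2 lower of 809, or 2.84%, against 8.51% of all 10791 features tested, 3.3% higher and 5.21% lower. The median log2 ratio of U1 to input was 0.14 in naive and 0.18 in MECS brain over those tested, against 0.03 and 0.02 over all features, and 65% and 70.1% were above 0. With scaling by library size alone, the median over all features in naive brain was 0.11 and that of the pseudogenes 0.22. Features over exons of an opposite-strand gene had the other direction more often, with 11 higher and 105 lower of 422 in naive and 15 higher and 81 lower of 421 in MECS brain. The difference between these sets of features was not tested.

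Single libraries moved these counts. The 21 called in naive brain became 5 without naive input 1, 13 without naive input 2 and 11 without naive U1 3. The 23 called in MECS brain became 7 without MECS U1 1, 10 without MECS input 3 and 12 without MECS U1 2. With the animal as a block, which pairs each U1 library with its own input, 57 were called in MECS brain, 53 of them higher. All 23 were among them. The share of all features called with the block is not given here, so the rise cannot be read as particular to these pseudogenes. Gm15425 in Pde10a was among those gained, with a ratio of 0.36 (SE 0.11, adjusted p = 0.011). In naive brain the block gave 16, and 6 lost the call: Gm2639 in Frmd4a (adjusted p = 0.0517), Rpl30-ps2 in Thsd1 (0.0535), Gm29705 in Gm35572 (0.063), AC166350.1 in Ston1 (0.0675), Gm5313 in 9530026P05Rik (0.0797) and Gm11719 in Pitpnc1 (0.0828). Summed by host, 20 of 688 hosts were higher and 0 lower in naive brain, against 10.5% of 10662 rows (4.24% higher and 6.27% lower). In MECS brain 17 of 700 were higher and 1 lower, against 8.59% of 10530 rows (3.35% higher and 5.24% lower). These 20 became 5 without naive input 1, 12 without naive input 2 and 10 without naive U1 3, and the 18 became 8 without MECS U1 1 and 10 without MECS input 3. With the block, 48 hosts were called in MECS brain, 45 of them higher, again without the share over all rows.

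The naive and MECS comparisons share no library, and 7 pseudogenes were higher with U1 in both, 7 of the 20 (35%) and 7 of the 21 (33.3%). Over all features, 234 were higher in both, 51.1% of the 458 in naive and 65.7% of the 356 in MECS brain. The 7 are Gm49084 in Galnt15, Gm9985 in Ggt5, Gm17430 in Colec12, Gm7525 in Utrn, Gm48188 in Gcnt2, Rpl30-ps2 in Thsd1 and Gm5313 in 9530026P05Rik. Galnt15 and Gcnt2 encode glycosyltransferases, Ggt5 a gamma-glutamyl transferase, Colec12 a scavenger receptor, Utrn the dystrophin relative utrophin and Thsd1 a membrane protein with a thrombospondin domain. The groups of Gm17430 overlapped in MECS brain, where MECS U1 3 had 9.38 CPM and MECS input 1 had 9.8 CPM. In naive input Gm9985 had 3, 4 and 17 counts, Gm17430 had 4, 3 and 15, and Rpl30-ps2 had 5, 13 and 11. In naive brain these passed the filter on low counts only with their U1 libraries, where they are high. Gm17430 did so in MECS brain as well, with 13, 6 and 8 counts in MECS input.

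Gm49084 in Galnt15 had the largest change of these 7 in both states. It had 2.57, 9.57 and 6.93 CPM in naive input and 30.3, 30.8 and 37.8 CPM in naive U1 libraries. The naive input values came from 3, 7 and 9 counts. In naive brain it therefore passed the filter on low counts only with its U1 libraries, where it is high. After MECS it had 14.3, 11 and 19.5 CPM in input and 81.3, 50.6 and 52.6 CPM in U1 libraries. Every U1 library was above every input library of its state. The log2 ratio was 2.46 (SE 0.41, adjusted p = 5.82e-05) in naive and 2.06 (SE 0.28, adjusted p = 2.36e-05) in MECS brain. It kept the call in every alternative fit of both comparisons, with adjusted p of up to 0.00172 and 0.000615, the only 1 of the 21 in naive brain to do so. In MECS brain 5 of the 23 did.

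Those 5 were Gm49084, Gm9985, Gm7525, Gm48188 and Gm7539. Gm7525 in Utrn had 22.6, 11 and 10.7 CPM in MECS input and 57.8, 46 and 32.5 CPM in MECS U1, a log2 ratio of 1.58 (SE 0.31, adjusted p = 0.00135). In naive brain it had 9.43, 17.8 and 16.9 CPM in input and 24.5, 32.9 and 47.9 CPM in U1, a ratio of 1.30 (SE 0.34, adjusted p = 0.0099). Its groups did not overlap in either state. Gm48188 in Gcnt2 had 24.1, 18.3 and 13.6 CPM in MECS input and 56.2, 48.3 and 36.9 CPM in MECS U1, a ratio of 1.32 (SE 0.27, adjusted p = 0.00202), and it also overlaps Gm31683 on its own strand. Gm9985 in Ggt5 had 14.3, 11.9 and 14.6 CPM in MECS input and 25.8, 32.7 and 32.5 CPM in MECS U1, a ratio of 1.17 (SE 0.29, adjusted p = 0.01). Gm7539 in the thiamine transporter gene Slc19a3 had 9.04, 11 and 1.95 CPM in MECS input and 28.9, 29.6 and 20 CPM in MECS U1, a ratio of 1.80 (SE 0.40, adjusted p = 0.00438). Its MECS input values came from 12, 12 and 2 counts, so it passed the filter on low counts there only with its U1 libraries. It did not pass that filter in naive brain. In naive brain the calls of Gm9985, Gm7525 and Gm48188 were lost without naive input 1, with adjusted p of up to 0.078, 0.118 and 0.0747 over the alternatives, and without naive U1 3 for Gm9985 and Gm7525 or naive input 2 for Gm48188.

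**Figure D4:**
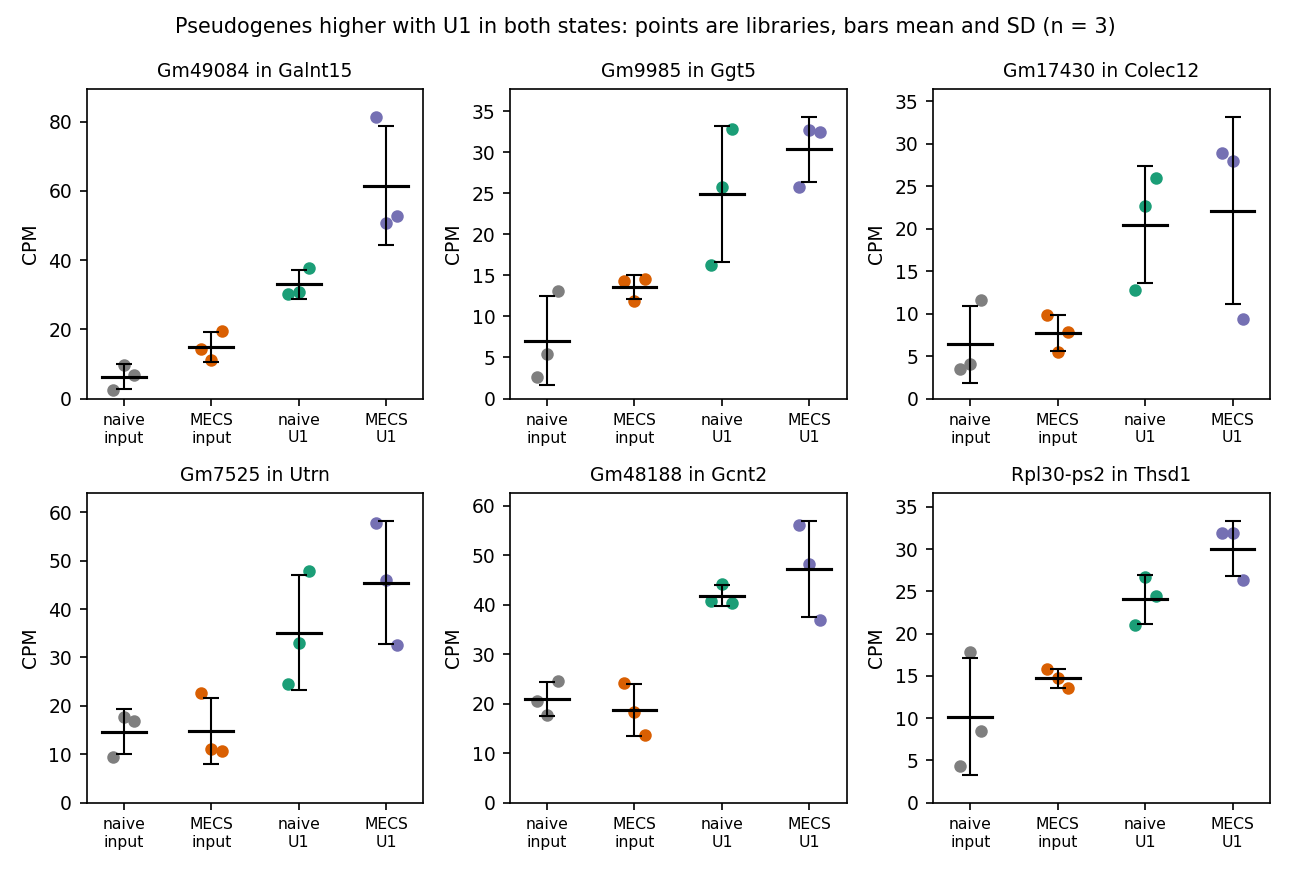
CPM of 6 of the 7 pseudogenes that were higher with U1 in both states, by group. Points are the 3 libraries of a group, bars are the mean and SD, each axis starts at 0, and Gm49084 rises from 6.36 to 33 CPM in naive and from 14.9 to 61.5 CPM in MECS brain.

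Among the pseudogenes higher with U1 in naive brain, log2 ratios of the 12 largest included 2.73 for Gm9200 in Gm5127, above that of Gm49084, 2.33 for Gm42573 in Cped1, 1.66 for Gm29705 in Gm35572 and 1.20 for Gm11719 in Pitpnc1. Gm9200 had 0, 1.37 and 3.85 CPM in input and 9.33, 14.4 and 13.4 CPM in U1, the former from 0, 1 and 5 counts. Gm42573 had 3, 0 and 4 counts in input against 9, 21 and 14 in U1, and Gm29705 had 5, 2 and 7 against 9, 26 and 20. Such pseudogenes passed the filter on low counts through their U1 libraries, where they are high. Hosts of this group included Ston1, an endocytic adaptor, Wwtr1, a Hippo effector, and Ldlrad3, a membrane receptor. In naive input their pseudogenes had 8, 2 and 7 counts (AC166350.1), 8, 10 and 18 (Gm16016) and 6, 10 and 9 (Gm13921). Gm11719 had 13, 3 and 16 there. These too passed the filter on low counts only with their U1 libraries. After MECS the hosts included Ostf1 (Gm8250, 1.70), the tight junction scaffold Tjp1 (Gm44795, 1.17) and the mitochondrial ribosome gene Mrps28 (Gm15467, 1.30). In MECS input Gm8250 had 14, 2 and 10 counts and Gm15467 had 12, 10 and 5. Both passed the filter on low counts only with their U1 libraries, where they are high. Gm15467 lost the call in 5 of 14 alternative fits, DESeq2 among them, and Gm8250 and Gm44795 in 1 each. A pseudogene of Ptprm, an adhesion receptor phosphatase, was called in each state, AC109261.2 in naive (0.95) and AC139750.2 in MECS brain (1.66). AC109261.2 lost the call in 4 of 14 alternative fits, DESeq2 among them. AC139750.2 lost it in 9 of 14, also on leaving out any 1 library. It had 3, 4 and 4 counts in MECS input and passed the filter on low counts through its U1 libraries. Summed, the 3 pseudogenes of Ptprm had ratios of 0.73 (SE 0.21, adjusted p = 0.0215) and 0.72 (SE 0.17, adjusted p = 0.00737). The 3 other features of that host had 0.69 (SE 0.17, adjusted p = 0.00531) and 0.67 (SE 0.14, adjusted p = 0.00322), so both readings of Ptprm rose with U1 in both states. In Prkg1, a cyclic GMP-dependent kinase, AC110180.1 had 1.01 in naive brain and the 2 other features 0.80 (SE 0.16, adjusted p = 0.000832).

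Lower with U1 were Gm17995 in Cyld in naive brain and Gm48224 in Gphn and Gm49228 in App in MECS brain. Gm17995 had 45.4, 43.7 and 40.8 CPM in naive input and 15.2, 29.3 and 21.8 CPM in naive U1, a log2 ratio of -0.90 (SE 0.28, adjusted p = 0.0349). After MECS its ratio was -0.04 (SE 0.21). Gm48224 in Gphn, which encodes the inhibitory synapse scaffold gephyrin, had 30.9, 28.4 and 41.9 CPM in MECS input and 12.9, 6.23 and 21.9 CPM in MECS U1, a ratio of -1.24 (SE 0.34, adjusted p = 0.0223). Gm49228 in the amyloid precursor gene App had 63.3, 71.5 and 102 CPM in MECS input and 44.1, 42.8 and 52.6 CPM in MECS U1, a ratio of -0.74 (SE 0.21, adjusted p = 0.0293). In none of the 3 did the groups overlap, but they were picked by the test on these same libraries. The share of all features without overlap was not counted. The call of Gm17995 was lost without any 1 of naive input 1, 2 and 3, naive U1 1 and naive U1 3, and with DESeq2, library size scaling or no filter, with adjusted p of up to 0.132. Those of Gm48224 and Gm49228 were lost without MECS input 3, MECS U1 1 or MECS U1 2, with adjusted p of up to 0.125 and 0.196, and that of Gm49228 also with all 12 libraries in 1 fit (adjusted p = 0.0991). Gm49228 matches the mitochondrial gene mt-Nd4 at 78.3% identity.

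Features opposite some marker genes of vessels moved with U1 as well. None of these pseudogenes lies in a host from the lists of endothelium, of pericytes and smooth muscle, of microglia or of choroid plexus and ependyma. The summed level of all 3 features opposite 2 of 10 endothelial markers was 230 to 371 CPM in input and 666 to 1242 CPM in U1 libraries, and all 3 were higher with U1 in each state. The 7 features opposite 6 of 12 markers of pericytes and smooth muscle summed to 299 to 509 CPM in input and 1500 to 2757 CPM in U1 libraries, with 6 of 7 higher in naive and 7 of 7 in MECS brain. The 7 features opposite 4 of 9 astrocyte markers went the other way, from 3866 to 6472 CPM in input to 1105 to 1591 CPM in U1 libraries, with 2 of 5 tested lower in each state. Over all features tested, 4.19% were higher with U1 in naive and 3.3% in MECS brain, and 6.26% and 5.21% were lower. The endothelial markers Cldn5, Pecam1, Flt1 and Tek have no such feature, so that sum rests on 2 other genes of the list. Acta2, Myh11, Rgs5 and Pdgfrb, of pericytes and smooth muscle, have none either. The part of these cell types in the differences between U1 and input was not tested, and in tissue the number of cells and the RNA per cell cannot be told apart.

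No difference in the ratio of U1 to input between MECS and naive brain passed the threshold. In the interaction over all 12 libraries, 0 of 885 were called by edgeR or DESeq2, as were 0% of all 12184 features tested, and 22 had an unadjusted p under 0.05. The 3 smallest unadjusted p were those of Gm15710 in Uso1 (log2 2.40), Gm19078 in Polr1a (1.25) and AC119957.1 in Ndufv2 (0.92), each with adjusted p = 0.997. Gm15710 matches Rpl13 at 99.8% identity.

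Pseudogenes were also counted by the function of the host. Over all features tested, 0.51% were higher after MECS in input and 0.332% in U1 RNA, with 47.5% and 48.1% above 0, and 4.19% and 3.3% were higher with U1 in naive and MECS brain, with 52.5% and 51.9% above 0. The lists are small and are given as counts only. Ion channel genes held 22 of these pseudogenes in 12 hosts, with a median of 84.9 CPM per exon kilobase, against 33.1 over all. After MECS their median log2 change was 0.17 in input, with 1 of 19 tested higher (Gm13268), and 0.26 in U1 RNA, with 0 of 21 called and 18 above 0. With U1, 1 of 19 was higher in naive brain (Gm13268 in Cacnb2) and 2 of 21 in MECS brain (Gm10025 in Kcnip4 and Bloc1s2-ps in Cacnb4). Gm13459 in the calcium channel gene Cacna1b had 118 ± 13.9 CPM in naive and 185 ± 40.4 CPM in MECS input (SD, n = 3), a change of 0.58 that did not pass the test. Presynaptic and vesicle genes held 8 in 7 hosts, with 1 of 8 higher in input (Gm47660) and 2 of 8 in U1 RNA (Gm47660 and Gm18325). In this list Gm37201 in the active zone gene Bsn had a change of 0.51 in input, Gm26866 in Rims1 0.06 and Gm14053 in Snap25 -0.03. Signalling enzymes held 14 in 10 hosts, with 1 of 14 higher in each kind of RNA (Gm15425). For U1 against input, 12 of these 14 were above 0 in naive and 14 of 14 in MECS brain, and 1 was called in each (AC110180.1 in naive, Gm49071 in MECS brain). Gm49071 lies in Fgf14, which is in this list although it encodes no enzyme.

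Glutamate and GABA receptor genes held 10 in 6 hosts and had 0 called in any comparison. Their median log2 changes after MECS were 0.13 in input and 0.08 in U1 RNA. Synaptic and neuronal adhesion genes held 23 in 13 hosts, with median changes after MECS of -0.08 in input and -0.03 in U1 RNA and 0 called. With U1, 1 of 22 was higher in naive brain (Gm11246 in Ptprd). Cytoskeletal and axonal transport genes held 15 in 10 hosts, with 0 called after MECS. Higher with U1 were 1 of 12 in naive and 2 of 11 in MECS brain, against 4.19% and 3.3% of all features tested. These were Gm7525 in Utrn in both states and Gm12926 in Macf1 after MECS. Genes of splicing regulators, chromatin and transcription, and ubiquitin and proteostasis held 2, 6 and 3, with 0 called. Of the marker lists of brain cells, 1 lies in a neuronal host, 1 in an astrocyte host and 4 in oligodendrocyte hosts, with 0 called. The lists of activity-regulated genes and of stress hormone response hold no host.

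The changes of these pseudogenes went with their base composition. Spearman's rho with GC content, over those tested and as a description, was -0.17 in input and -0.27 in U1 RNA for the change after MECS, and 0.28 in naive and 0.26 in MECS brain for the ratio of U1 to input. Pseudogenes under 40% GC had a median log2 ratio of U1 to input of -0.24 in naive brain and 0.03 after MECS, and those of at least 55% had 0.31 and 0.37. After MECS the medians in U1 RNA were 0.38 under 40% GC and 0.00 at 55% or more. The part of base composition in these differences was not tested. U1 ratios also rose with distance from the 5′ end of the intron, from medians of 0.07 in naive and 0.12 in MECS brain within 2000 bases to 0.28 and 0.20 between 30000 and 100000 bases. The rho values for that distance were 0.17 and 0.14, and for the change after MECS they were 0.00 in input and -0.04 in U1 RNA.

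**Figure D5:**
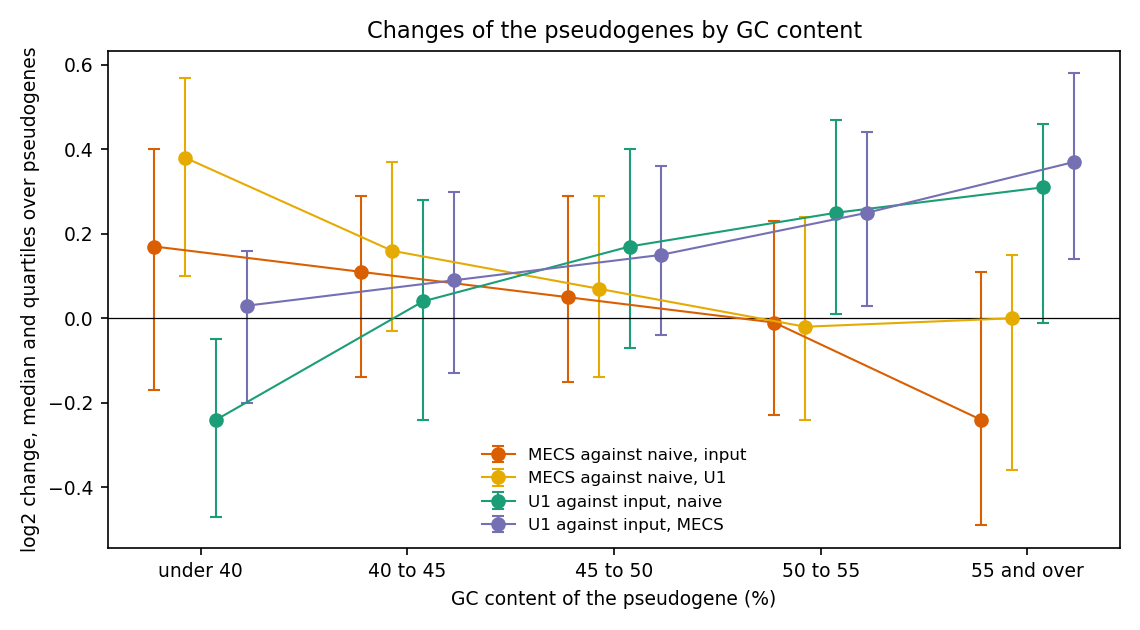
Median log2 change over pseudogenes, with quartiles as bars, in 5 classes of GC content (in %) for the 4 comparisons. Ratios of U1 to input rise from the lowest to the highest class, and changes after MECS are highest in the lowest class.

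Hexamers that can pair with U1 or act in polyadenylation were counted on both strands. In the 982 pseudogenes of at least 300 bases, each strand was read over its own first 300 bases. The host-strand and own-strand windows thus start at opposite ends of a pseudogene. GTAAGT was found on the host strand in 4.68%, against 4.28% of all 11285 pseudogenes of that length. On the pseudogene's own strand it was found in 2.24% against 2.42%. AATAAA was found on the host strand in 4.28% against 6.25%, and on the own strand in 9.47% against 8.39%. For the comparison sets, the strand opposite to the pseudogene was read in place of the host strand. In 840 pseudogenes of that length in same-strand introns, AATAAA was found in 4.88% on the opposite strand and 8.21% on the own strand. GTAAGT was found in 5% and 2.62% of them. The values of these pseudogenes in opposite-strand introns thus lay near those of pseudogenes in same-strand introns. These hexamers cannot overlap each other, and a match is a description of letters only. Over whole pseudogenes, the 116 with GTAAGT on the host strand had median log2 ratios of U1 to input of 0.12 (naive) and 0.16 (MECS). The 1033 without it had 0.16 and 0.18. The 127 with AATAAA, such as Gm15425, had median changes after MECS of 0.20 in input and 0.19 in U1 RNA, and the 1022 without had 0.02 and 0.07. Those with AATAAA were also longer, with a median of 941 against 492.5 bases, and these differences were not tested.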

How the data were processed

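For each library the authors deposited whole-number counts keyed by Ensembl identifier. The submitters' processing notes name Trimmomatic 0.39, FastQC, HISAT2 2.2.0, StringTie 2.1.3, Salmon 1.4, DESeq2 and the build mm10, with no role or order. No source used here states the counter, its annotation or its strand setting. Rows that name no gene were left out. They held 98.2 to 98.6% of the listed reads of a library, 88.3 to 91.3% as reads in no feature, so that genes held 1.42 to 1.84%. Of 55471 identifiers, 55144 matched GENCODE M21 (GRCm38).

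Groups were compared over all features in edgeR 4.0.16 (R 4.3.3) by its quasi-likelihood test, after filterByExpr at its defaults and TMM scaling, with p-values adjusted by Benjamini-Hochberg and called at 0.05. SE is the log2 change divided by the square root of F. CPM use TMM factors over 12 libraries. Shares were compared with exact permutation tests in SciPy 1.17.1. Best matches came from BLAST 2.17.0 (E at most 1e-10, cover of at least 50%). Tests were checked on simulated counts. Also tried were DESeq2 1.42.0, scaling by RLE or by library size, other filters, all 12 libraries in 1 fit, an animal or replicate block, removal of mitochondrial, ribosomal and small RNAs, other member rules and leaving out each library.

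By the start of its title, each U1 library belongs with 1 input library, from the same animal. Deviations from group means correlated at 0.02, -0.1 and -0.02 for naive pairs and 0.11, 0.22 and 0.12 for MECS pairs. Named pseudogenes were those called in a comparison (the 12 largest changes in each direction), the 12 most abundant, all in the 8 hosts with most (ties at 3 pseudogenes broken by summed mean CPM), up to 4 per host list, the 3 smallest p where none was called, and 3 on each side of 1 CPM. The members, lists and tests were chosen with earlier results of these data known.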

Additional observations from a re-analysis of the deposited data

How the results depend on the processing

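Counts of pseudogenes called were within 1.5 times the main count with full groups, except as follows. MECS against naive in input (5) gave 10 with library size scaling, 9 with no filter, 2 with DESeq2 and 10 with a replicate block. MECS against naive in U1 RNA (3) gave 7 with no filter, 6 with a filter of 1 CPM in 3 libraries and 6 with all 12 libraries in 1 fit. U1 against input gave 11 with DESeq2 in naive brain (21), and 13 with DESeq2 and 57 with the replicate block in MECS brain (23). Counts of hosts gave, for MECS in input (4), 9 with library size scaling, 7 with no filter, 2 with DESeq2 and 7 with the replicate block, and for MECS in U1 RNA (5), 3, 10 and 2 with library size scaling, no filter and the block. For U1 against input they gave 12 with DESeq2 in naive brain (20), and 11 with DESeq2 and 48 with the replicate block in MECS brain (18). The cause was not tested.

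Leaving out each library gave 1 to 6 and 1 to 12 pseudogenes for MECS in input and U1 RNA, 5 to 23 and 7 to 24 for U1 in naive and MECS brain, and 0 for the interaction. For hosts the ranges were 0 to 7, 0 to 12, 5 to 21, 8 to 18 and 0. The difference in share ranged from 0.223 to 0.512 and 0.143 to 0.389 percentage points for MECS, and from 0.454 to 0.7 and 0.34 to 0.62 for U1. Without mitochondrial, ribosomal and small RNAs in the total, that of U1 after MECS was 0.824 in place of 0.462.

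For MECS against naive, replicate numbers are only names, and the correlations of deviations were 0.07, -0.03 and 0 in input and 0.01, -0.01 and -0.1 in U1 RNA, so the replicate block there joins animals that share only a number. Gm47660 lost its call in U1 RNA with it (adjusted p = 0.0736). No named pseudogene changed direction in any alternative. With library size scaling, the median interaction over pseudogenes was -0.05 in place of 0.02 (45.8% above 0 in place of 53%). The median over all features for MECS in input was then 0.05 in place of -0.02, and that of the pseudogenes 0.10 in place of 0.03. In addition, 2 other member rules were chosen after seeing the data: no gene on the own strand, and under 98% identity to the match. Under these rules every count stayed within 1.5 times the main one.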
